A study of Mus musculus with 4 samples.

Results

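The SR and hnRNP families, with the Rbfox, Celf, Elavl and Nova families, are RNA-binding proteins that set how messenger RNA is spliced, exported, stored and destroyed. Their genes were chosen by symbol (Srsf, Hnrnp, Rbfox1 to Rbfox3, Celf1 to Celf6, Elavl1 to Elavl4, Nova1 and Nova2), without pseudogenes, at a mean of at least 1 CPM, the count of a gene scaled to the size of its library, over the libraries. This rule found 46 of the 55471 genes listed: 11 SR, 20 hnRNP, 3 Rbfox, 6 Celf, 4 Elavl and 2 Nova genes, and no matching symbol lay under the minimum. The rule used symbols and levels and not the difference between the groups, but these families were chosen with earlier results of these data known.

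RNA was sequenced from pull-downs of tagged ribosomes in 4 libraries, 2 from mice on cuprizone and 2 from mock controls. The cuprizone mice ate chow with 0.2% of the copper chelator, which kills oligodendrocytes and strips myelin, and the mock mice ate normal chow. Mice of both groups were GFAP-Cre+/- Rpl22HA/wt: Cre under the GFAP promoter gives 1 allele of the ribosomal protein gene Rpl22 an HA tag, and an anti-HA antibody then recovers the tagged ribosomes, with the RNA on them, from cells that have or once had Cre. The mice were males of 8 to 9 weeks per the design text, and which GFAP-Cre line was used is not given in the sources used here. The sample labels give the tissue as brain, the cell type as astrocytes, the time as 3 weeks and the batch as 1. The design text names the corpus callosum, the large myelinated tract between the hemispheres, and collection at 5, 5.5 and 7 weeks, so the time is uncertain. The labels call the libraries biological replicates without saying how many animals entered each, so the spread behind the p-values may be technical in part.

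SR proteins bind exonic enhancers through RNA recognition motifs and recruit the spliceosome through an arginine- and serine-rich tail, which SRPK and CLK kinases phosphorylate. hnRNP proteins coat nascent transcripts and often act against SR proteins at the same exons, and several SR and hnRNP proteins limit their own level by splicing in a poison exon or intron that sends their transcript to nonsense-mediated decay. Rbfox, Nova, Celf and the neuronal Elavl proteins are known for tissue-specific splicing and transcript stability, above all in neurons, and a ribosome pull-down records only transcripts that were bound to tagged ribosomes or carried over with them.

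The libraries held 21834814 and 23822620 counts in the cuprizone group and 22109536 and 21209517 in the mock group. Of 15816 genes tested with edgeR's quasi-likelihood test, 5 passed an adjusted p of 0.05 as higher under cuprizone (0.0316%) and 8 as lower (0.0506%), and the median log2 fold of all of them was 0.00. Both cuprizone libraries lay above both mock libraries for 21.9% of all genes tested and below for 22.5%. At an edgeR unadjusted p under 0.05, 5.73% of all genes tested were higher and 7.04% lower. The 15 astrocyte markers together took 0.722% and 0.770% of the counts under cuprizone, against 1.157% and 1.144% in mock. Of these, 9 of 15 (60.0%) were lower in both cuprizone libraries, and none was at 0. At an edgeR unadjusted p under 0.05, 9 were lower and 0 higher, and the median log2 fold was -0.59. At an adjusted p of 0.05, edgeR called 0 of them, limma-voom 2 and DESeq2 8. The astrocyte intermediate filament gene Gfap had 373 and 443.6 CPM under cuprizone, against 989 and 891 CPM in mock. The 15 neuronal markers took 1.741% and 1.701% under cuprizone, against 1.502% and 1.573% in mock, and the synaptic gene Snap25 had 9612 and 9842 CPM under cuprizone, against 8519 and 8495 CPM in mock. The neuronal markers did not go one way: 6 of 15 (40.0%) were higher and 5 (33.3%) lower in both cuprizone libraries. At an edgeR unadjusted p under 0.05, 1 was higher and 5 lower, and the median log2 fold was 0.06. All 12 oligodendrocyte markers together took 1.01% and 1.33% under cuprizone, against 1.28% and 1.48% in mock. They were divided as well: 3 (25.0%, near the share of all genes) were higher and 5 (41.7%) lower in both cuprizone libraries. At an edgeR unadjusted p under 0.05, 3 of them were higher and 4 lower. Precursor, microglial and vascular marker lists each stayed at or under 0.010% in every library, and the microglial genes Cx3cr1 and Aif1 were at 0 in both cuprizone libraries. Neuronal and oligodendrocyte transcripts were thus abundant in both groups, and the part of these shifts in the results below was not tested. In such bulk RNA, fewer cells of a type and less RNA per cell cannot be told apart.

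No gene of these families passed the adjusted threshold in edgeR, and the smallest adjusted p was 0.182, for Srsf2. At an unadjusted p under 0.05, 7 of 46 members (15.2%) were higher and 0 lower, while 5.73% of all genes tested were higher and 7.04% lower at that level. These were Srsf2, Nova1, Hnrnpu, Hnrnpd, Hnrnpa0, Hnrnpk and Hnrnpul1. By limma-voom, 0 members passed an adjusted p of 0.05. By DESeq2, Srsf2 alone passed, where 1.67% of all genes were called higher. Both cuprizone libraries lay above both mock libraries for 18 members (39.1%), beside 21.9% of all genes tested. Both lay below for Srsf9 and Celf3 (4.35%), beside 22.5% of all genes. For the other 26 members the groups overlapped. The shares of all genes are not matched for level: the median was 117 CPM for the members and 16.8 CPM for all genes tested. The log2 fold was positive for 32 of 46 members (69.6%), beside 50.1% of all genes, with a median of 0.12 and a range of -0.50 to 1.34. Differences were small: 25 members had a log2 fold under 0.2 in size, and the median standard error was 0.19.

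**Figure D1:**
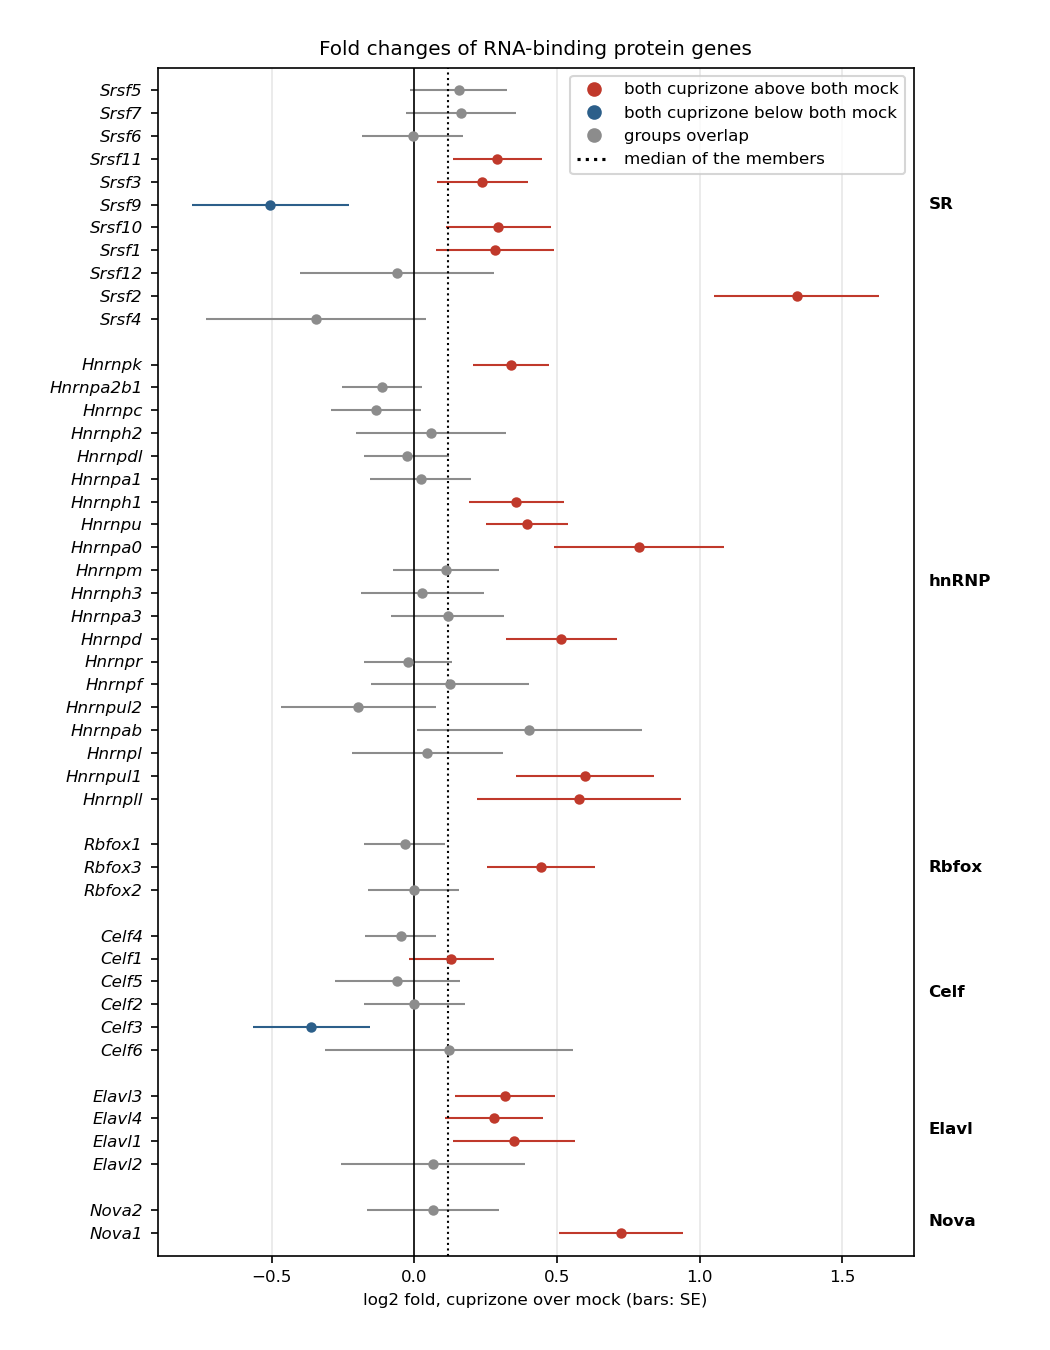
Log2 fold of cuprizone over mock for each of the 46 members, grouped by family and ordered by mean level per kb of exon, with bars for the standard error. Red points are the 18 members whose cuprizone libraries both lay above both mock libraries, blue points are Srsf9 and Celf3, gray points overlap between groups, and the dotted line is the median of 0.12.

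The members together held a larger share of each cuprizone library than of each mock library. Their summed share was 0.936% and 0.964% of counts under cuprizone, against 0.811% and 0.832% in mock. The means were 0.950% ± 0.0194 under cuprizone and 0.822% ± 0.0145 in mock (SD, n = 2 each; exact permutation test, 2-sided, p = 0.33, the smallest that 2 against 2 allows). The hnRNP genes held the largest part, 0.407% and 0.430% under cuprizone, against 0.364% and 0.356% in mock. The SR genes held 0.118% and 0.130% under cuprizone, against 0.108% and 0.101% in mock. The Rbfox genes held 0.148% and 0.150% under cuprizone, against 0.120% and 0.130% in mock. In each of these families the groups did not overlap, and neither did they for the Elavl genes, at 0.0789% and 0.0814% under cuprizone, against 0.0570% and 0.0687% in mock. The Nova genes held 0.0116% and 0.00989% under cuprizone, against 0.00735% and 0.00833% in mock. The Celf genes overlapped, at 0.172% and 0.163% under cuprizone, against 0.156% and 0.168% in mock. The same exact permutation test gave p = 0.33 for each family except Celf, for which p was 0.67. These shares are of all counts and are not corrected for composition.

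**Figure D2:**
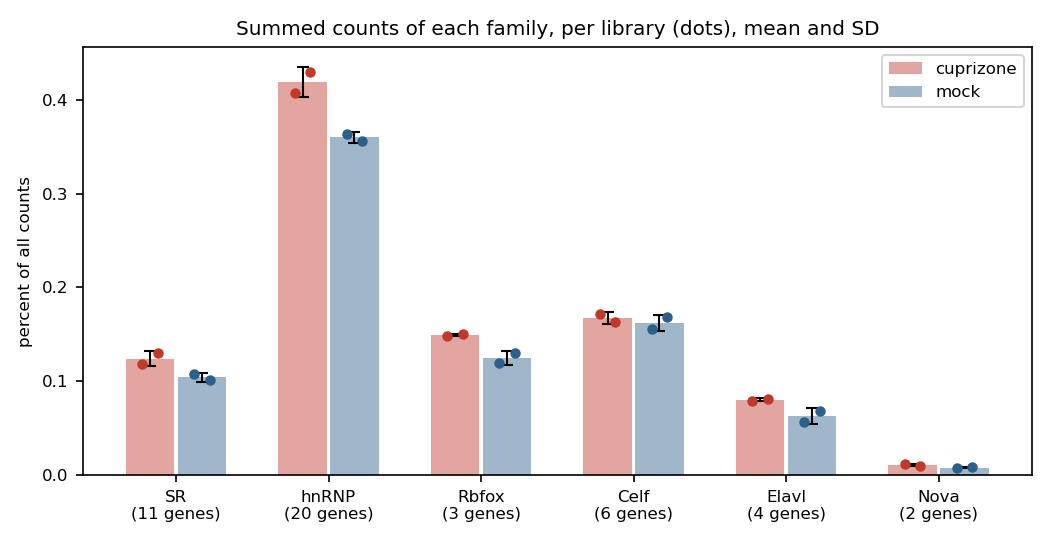
Percent of all counts held by each family, with 1 dot per library, bars at the mean and whiskers for the SD (n = 2 per group). The cuprizone dots lie above the mock dots in every family except Celf, and the hnRNP genes hold the largest share, 0.419% under cuprizone and 0.360% in mock on average.

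Levels differed far more between members than between groups. Counted per kb of exon, Hnrnpk, a poly(C)-binding protein, stood highest over the 4 libraries at 172 ± 16.9 CPM per kb under cuprizone and 136 ± 0.715 in mock (SD, n = 2 each). Next came Rbfox1 with 136 ± 7.16 CPM per kb under cuprizone and 139 ± 13.9 in mock, then Rbfox3 with 125 ± 9.07 under cuprizone and 92.0 ± 21.7 in mock, and Celf4 with 102 ± 4.45 under cuprizone and 105 ± 1.62 in mock. In mock, the Rbfox1 libraries lay on either side of the Hnrnpk ones, so the order of those genes is not resolved there. In cuprizone replicate 2, Rbfox3 (131.7 CPM per kb) lay above Rbfox1 (130.5), so the order of Rbfox1 and Rbfox3 is not resolved under cuprizone. The lowest was Celf6 with 3.25 ± 0.112 CPM per kb under cuprizone and 2.98 ± 1.22 in mock. By CPM without length, the median member stood at 117 CPM over the 4 libraries, beside 16.8 CPM for all genes tested, so members were measured with more counts than most genes. Replicates of 1 group differed by a median of 1.14-fold under cuprizone and 1.12-fold in mock. The pairs differed by more than 1.5-fold for Elavl2, Srsf4, Hnrnpab, Hnrnph2 and Hnrnpul2 under cuprizone, and for Celf6, Srsf12, Hnrnpa0 and Hnrnpll in mock.

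**Figure D3:**
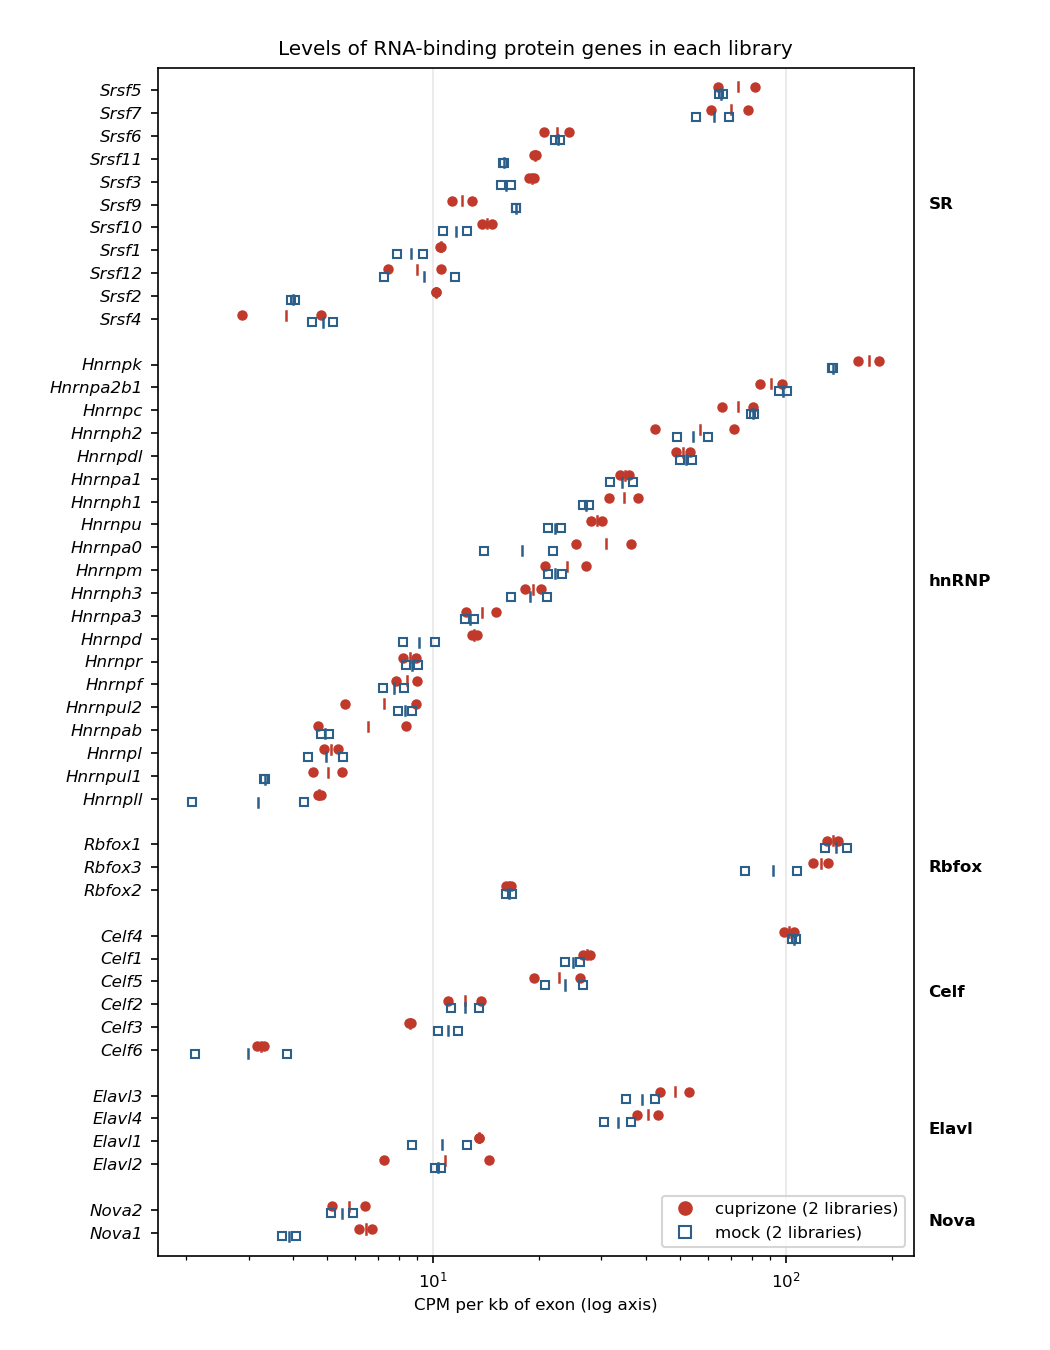
Level of each member in CPM per kb of exon on a log axis, with 2 cuprizone libraries as filled red circles, 2 mock libraries as open blue squares and short lines at the group means. Members span from Celf6, at 3.25 under cuprizone and 2.98 in mock, to Hnrnpk, at 172 under cuprizone and 136 in mock.

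Promoters of 4 members, picked after their values were seen, are printed to set the letters of genes without overlap between groups side by side: Srsf2, Hnrnpa0 and Hnrnpul1, which were higher under cuprizone, and Srsf9, which was lower. Each is the 150 bases before the RefSeq transcript start on GRCm38.p6, written 5′ to 3′ on the gene's strand, with capitals for the GC box (GGGCGG) and for the CCAAT box on either strand. Capitals also mark a TATA box, here the letters TATAAA, on either strand.
Srsf2: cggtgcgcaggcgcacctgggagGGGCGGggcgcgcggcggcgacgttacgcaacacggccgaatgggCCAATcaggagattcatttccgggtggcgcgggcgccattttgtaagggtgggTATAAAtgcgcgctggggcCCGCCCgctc
Hnrnpa0: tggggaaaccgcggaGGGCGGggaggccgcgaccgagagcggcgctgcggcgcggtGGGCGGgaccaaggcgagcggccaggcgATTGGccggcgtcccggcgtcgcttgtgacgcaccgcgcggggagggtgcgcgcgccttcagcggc
Hnrnpul1: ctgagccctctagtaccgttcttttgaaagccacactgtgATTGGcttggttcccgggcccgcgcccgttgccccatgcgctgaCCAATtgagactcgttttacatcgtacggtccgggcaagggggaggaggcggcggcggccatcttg
Srsf9: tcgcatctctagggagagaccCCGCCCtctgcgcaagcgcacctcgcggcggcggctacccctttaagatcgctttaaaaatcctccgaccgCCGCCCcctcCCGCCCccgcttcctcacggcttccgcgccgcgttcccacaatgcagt
The Srsf2 window is at chr11:116853095-116853244 on the minus strand, that of Hnrnpa0 at chr13:58128557-58128706 on the minus strand, that of Hnrnpul1 at chr7:25754760-25754909 on the minus strand and that of Srsf9 at chr5:115327027-115327176 on the plus strand. Of these 4, only Srsf2 holds all 3 boxes. Hnrnpul1 holds 2 CCAAT boxes and no GC box, while Srsf9 holds 3 GC boxes and no CCAAT box. Among 78 promoters of the 42 members matched in RefSeq, 57.7% held a GC box, beside 28.6% of 32851 promoters of the same length. A CCAAT box was in 35.9% of member promoters, beside 24.5% of all, and a TATA box in 3.85%, beside 7.57% of all. The median number of CG pairs was 13, beside 4 over all promoters. The 32851 promoters were not limited to protein-coding or tested genes, whereas all members are both, so the sets differ in more than family. The printed windows hold 21 such pairs for Srsf2, 28 for Hnrnpa0, 13 for Hnrnpul1 and 19 for Srsf9. A match of letters is a description and not a bound site.

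Among the SR genes, Srsf2 stood apart. Srsf2 (SC35) is found in nuclear speckles, the stores of splicing factors, and binds exonic enhancers. Its gene (ENSMUSG00000034120) lies at chr11:116849901-116853094 on GRCm38, on the minus strand. Srsf2 had 30.1 and 30.1 CPM under cuprizone, against 12.04 and 11.7 CPM in mock, from 676 and 730 counts under cuprizone, against 259 and 243 counts in mock. Both cuprizone libraries were thus well above either mock library, and the replicates of each group nearly coincided. The log2 fold was 1.34 ± 0.29 (SE), a fold of 2.53 (± after a log2 fold is the SE throughout), with an edgeR unadjusted p of 0.00295 and an adjusted p of 0.182. DESeq2 gave an adjusted p of 0.0140, so the call depends on the tool. Without any 1 library the log2 fold stayed between 1.34 and 1.36. Of the 2958 exon bases of Srsf2, 748 (25.3%) are shared with the neighbours Mettl23 and Mfsd11, and the strand setting of the counting is not given. Mettl23 had 22.4 and 24.1 CPM under cuprizone, against 28.2 and 26.1 CPM in mock. Mfsd11 had 17.9 and 18.5 CPM under cuprizone, against 26.1 and 26.2 CPM in mock. Both neighbours therefore stood lower under cuprizone, opposite to Srsf2, with adjusted p of 0.830 for Mettl23 and 0.510 for Mfsd11 in edgeR.

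Srsf9, a short SR protein, pointed the other way. It had 21.3 and 18.7 CPM under cuprizone, against 28.5 and 28.3 CPM in mock, and the groups did not overlap. Its log2 fold was -0.50 ± 0.27 (SE), with an edgeR adjusted p of 0.519. Srsf11, Srsf10, Srsf1 and Srsf3 were higher in both cuprizone libraries without passing the test. Srsf11 had 163 and 165 CPM under cuprizone, against 133 and 134 CPM in mock (log2 fold 0.29 ± 0.15, edgeR adjusted p = 0.509). Srsf10, which acts as a splicing repressor when dephosphorylated, had 103 and 96.1 CPM under cuprizone, against 87.5 and 74.9 CPM in mock (log2 fold 0.29 ± 0.18). Srsf1, the founding SR protein, had 60.1 and 59.8 CPM under cuprizone, against 53.4 and 45.2 CPM in mock (log2 fold 0.28 ± 0.21). Srsf3, which couples splicing to export, had 148 and 153 CPM under cuprizone, against 123.4 and 131 CPM in mock (log2 fold 0.24 ± 0.16). Srsf5, the SR gene with the most counts, had 255 and 327 CPM under cuprizone, against 264 and 258 CPM in mock. Srsf5, Srsf7, Srsf6, Srsf12 and Srsf4 overlapped between groups, and their log2 folds ran from -0.34 for Srsf4 to 0.16 for Srsf7. Of all SR expression counted per kb, Srsf2 made up 4.13% and 3.63% under cuprizone, against 1.64% and 1.74% in mock, so it stayed a minor SR transcript in every library.

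The log2 folds of the hnRNP genes ran from -0.20 to 0.79, beside -0.50 to 1.34 for the SR genes. Of 20, the log2 fold was positive for 15, both cuprizone libraries were higher for 7 (35%, beside 21.9% of all genes) and lower for none (beside 22.5%), and the median was 0.11. Hnrnpa0, an intronless gene whose protein binds AU-rich elements, had 97.3 and 67.9 CPM under cuprizone, against 37.4 and 58.4 CPM in mock. The groups did not overlap, but the replicates spread widely in both, and the log2 fold of 0.79 ± 0.30 (edgeR adjusted p = 0.352) ranged from 0.50 to 1.17 without 1 library. Hnrnpul1, a relative of the scaffold protein Hnrnpu, had 39.5 and 47.8 CPM under cuprizone, against 28.9 and 28.7 CPM in mock (log2 fold 0.60 ± 0.24, edgeR adjusted p = 0.380). Hnrnpll, known in T cells for switching Ptprc splicing, had 55.0 and 56.1 CPM under cuprizone, against 24.2 and 50.3 CPM in mock. Its log2 fold of 0.58 ± 0.36 rests on mock replicate 1: without it the value was 0.14. Hnrnpd (AUF1), which targets AU-rich transcripts for decay, had 97.7 and 94.6 CPM under cuprizone, against 60.3 and 74.3 CPM in mock (log2 fold 0.52 ± 0.19, edgeR adjusted p = 0.351).

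Hnrnpu (SAF-A), which binds chromatin and nuclear RNA, had 349 and 326 CPM under cuprizone, against 246 and 267 CPM in mock (log2 fold 0.39 ± 0.14, edgeR adjusted p = 0.334). Hnrnph1, a G-run binder, had 222 and 184 CPM under cuprizone, against 162 and 155 CPM in mock (log2 fold 0.36 ± 0.17, from 0.21 to 0.49 without 1 library). Hnrnpk had 1032 and 1187 CPM under cuprizone, against 880.4 and 874 CPM in mock (log2 fold 0.34 ± 0.13, edgeR adjusted p = 0.363). Each of these was higher in both cuprizone libraries, and Hnrnpk had the highest mean over the 4 libraries. In mock, Celf4 lay above Hnrnpk in both libraries by CPM. The classical A and C proteins, which package nascent RNA, lay near 0: Hnrnpa2b1 had 556 and 640 CPM under cuprizone, against 664 and 629.9 CPM in mock, Hnrnpc 349 and 285 CPM under cuprizone, against 352 and 344 CPM in mock, and Hnrnpa1 113 and 107 CPM under cuprizone, against 116 and 100.2 CPM in mock. Their groups overlapped, and the log2 folds were -0.11 ± 0.14 for Hnrnpa2b1, -0.14 ± 0.16 for Hnrnpc and 0.02 ± 0.18 for Hnrnpa1. The other overlapping members, from Hnrnpul2 to Hnrnpab, had log2 folds of -0.20 to 0.40.

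The 3 Rbfox proteins bind the same motif but differed in their values. Rbfox3 (NeuN), a marker of neuronal nuclei, had 692 and 766 CPM under cuprizone, against 446 and 624 CPM in mock. The groups did not overlap, yet the mock libraries differed more from each other than mock replicate 2 did from the nearer cuprizone library, and the log2 fold was 0.45 ± 0.19 with an unadjusted p of 0.0546 (edgeR adjusted p = 0.408). It was 0.22 without mock replicate 1 and 0.73 without mock replicate 2. Rbfox1 had 619 and 574 CPM under cuprizone, against 654 and 568 CPM in mock (log2 fold -0.03 ± 0.14). Rbfox2, which is also made outside neurons, had 131 and 136 CPM under cuprizone, against 131 and 136 CPM in mock, with a log2 fold of -0.00 ± 0.16. Counted per kb, Rbfox3 made up 43.1% and 47.2% of Rbfox expression under cuprizone, against 31.8% and 42.4% in mock, and Rbfox1 51.0% and 46.8% under cuprizone, against 61.6% and 51.0% in mock.

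Nova1 and Nova2 bind YCAY clusters in neuronal transcripts. Nova1 had 58.7 and 54.1 CPM under cuprizone, against 32.6 and 35.7 CPM in mock, with no overlap and close replicates. Its log2 fold was 0.72 ± 0.22, with an unadjusted p of 0.0141, an edgeR adjusted p of 0.267 and a DESeq2 adjusted p of 0.126, and it stayed between 0.66 and 0.82 without any 1 library. Nova2 overlapped, at 53.7 and 43.2 CPM under cuprizone, against 42.9 and 49.6 CPM in mock (log2 fold 0.07 ± 0.23).

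The Elavl genes had positive log2 folds in 4 of 4 members, beside 50.1% of all genes tested. Of these members, 3 had both cuprizone libraries higher, beside 21.9% of all genes. Elavl1 (HuR), a ubiquitous protein that stabilises AU-rich transcripts, had 139.9 and 139.7 CPM under cuprizone, against 90.5 and 129 CPM in mock (log2 fold 0.35 ± 0.21, from 0.12 to 0.65 without 1 library). Elavl3, a neuronal form, had 303 and 366 CPM under cuprizone, against 243 and 294 CPM in mock (log2 fold 0.32 ± 0.17, from 0.17 to 0.48 without 1 library). Elavl4, also neuronal, had 204 and 234 CPM under cuprizone, against 164 and 196 CPM in mock (log2 fold 0.28 ± 0.17, from 0.16 to 0.44 without 1 library). None passed the test, with edgeR adjusted p of 0.527 to 0.580 for those 3. Elavl2 had 119.6 and 60.4 CPM under cuprizone, against 87.8 and 84.2 CPM in mock, and its direction turned with the library left out, from -0.51 to 0.47.

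The Celf proteins bind GU-rich elements in introns and in transcripts marked for decay. Celf3, which is mainly neuronal, had 46.6 and 47.3 CPM under cuprizone, against 64.4 and 56.3 CPM in mock, without overlap (log2 fold -0.36 ± 0.20, edgeR adjusted p = 0.542). Celf1 had 235 and 225 CPM under cuprizone, against 199.7 and 220.3 CPM in mock, also without overlap (log2 fold 0.13 ± 0.15). Celf4 was the most abundant, at 848 and 902 CPM under cuprizone, against 894 and 914 CPM in mock (log2 fold -0.05 ± 0.12). Celf2, Celf5 and Celf6 overlapped too. Celf2 had 353 and 286 CPM under cuprizone, against 290.0 and 349 CPM in mock. Celf5 had 174 and 129 CPM under cuprizone, against 138 and 177 CPM in mock. Celf6 had 12.1 and 11.5 CPM under cuprizone, against 13.9 and 7.68 CPM in mock. Their log2 folds were 0.00 ± 0.18 for Celf2, -0.06 ± 0.22 for Celf5 and 0.12 ± 0.44 for Celf6. Among neuronal genes, Rbfox3, Elavl3, Elavl4 and Nova1 stood higher and Celf3 lower in both cuprizone libraries. Rbfox1, Nova2, Elavl2, Celf4 and Celf5, of the same families, overlapped between groups. Of the neuronal markers, 6 of 15 were higher and 5 lower in both cuprizone libraries, beside 21.9% and 22.5% of all genes tested. The marker Syp had 80.4 and 59.2 CPM under cuprizone, against 88.4 and 141.9 CPM in mock.

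**Figure D4:**
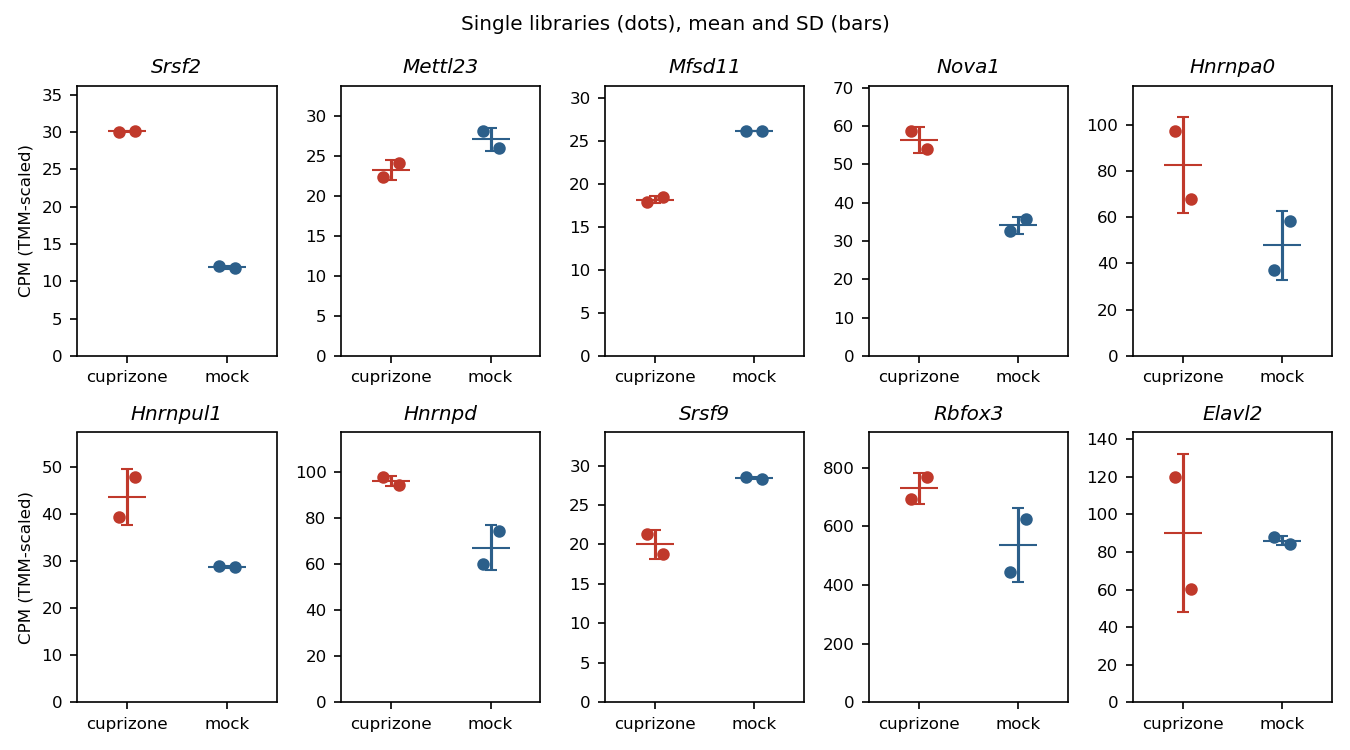
CPM (scaled by TMM) in each library for 8 members and for Mettl23 and Mfsd11, the neighbours of Srsf2, with dots for libraries and bars for the mean and SD (n = 2 per group). Srsf2 lies at 30.1 CPM in both cuprizone libraries and at 12.04 and 11.7 CPM in mock, while both neighbours and Srsf9 lie lower under cuprizone, and Elavl2 has its widest spread within the cuprizone pair.

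Annotation set the families apart as well. In GENCODE M21, 9 of 11 SR genes (81.8%) have at least 1 transcript marked for nonsense-mediated decay, as do 10 of 20 hnRNP genes, 3 of 6 Celf genes and none of the Rbfox, Elavl or Nova genes. Of 13704 protein-coding genes tested, 27.5% have one. SR genes are short, with a median span of 7.23 kb, and hnRNP genes 13.0 kb, whereas Rbfox genes have a median of 422 kb, and all protein-coding genes tested 25.6 kb. Rbfox1 spans 1526 kb and Hnrnpa0 2.68 kb. Counts per gene do not tell a productive transcript from one marked for decay, so the split between them was not measured here. Across the 46 members the log2 fold had a Spearman correlation of -0.04 with gene span and -0.08 with mean CPM, both from the same 4 libraries. In all, 6 members share over 10% of their exon bases with another gene: Srsf4, Nova2, Hnrnpab, Hnrnpf, Srsf2 and Hnrnpm. Hnrnpab shares 29.1% with Phykpl, which had 12.2 and 8.83 CPM under cuprizone, against 3.53 and 2.99 CPM in mock. Near-identical copies lie elsewhere in the genome for 10 members, most of all for Hnrnpa3 with 24, and the copies together held at most 2.37% of the counts of the member they resemble, for Hnrnpk.

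Genes that work with these proteins were read from lists, to be set beside all genes tested, of which 50.1% had a positive fold, 21.9% were higher in both cuprizone libraries and 22.5% lower. Of 12 kinases and regulators of SR proteins, 11 had a positive log2 fold, 6 were higher in both cuprizone libraries and 0 lower, and the median log2 fold was 0.31. Srpk2, the most abundant of them, had 422 and 384 CPM under cuprizone, against 305 and 346 CPM in mock (log2 fold 0.31 ± 0.15). Prpf4b, a kinase of the tri-snRNP, had 87.6 and 70.1 CPM under cuprizone, against 52.6 and 46.1 CPM in mock (log2 fold 0.68 ± 0.21, edgeR adjusted p = 0.285). Among 22 SR-related co-activators, 15 had a positive fold, 7 were higher in both cuprizone libraries and 1 lower, with a median log2 fold of 0.10. Tra2a, which binds purine-rich enhancers, had 83.8 and 70.5 CPM under cuprizone, against 45.2 and 45.7 CPM in mock, whereas its partner Tra2b had 159.6 and 174 CPM under cuprizone, against 166.6 and 150.1 CPM in mock. Among 37 other splicing regulators tested of 40 listed, 29 had a positive fold, 15 were higher in both cuprizone libraries and 4 lower, and the median log2 fold was 0.20. Khdrbs1 (Sam68) had 135 and 125 CPM under cuprizone, against 65.4 and 77.0 CPM in mock (log2 fold 0.87 ± 0.18, edgeR adjusted p = 0.178, DESeq2 adjusted p = 0.00416). Qk, the glial splicing regulator, overlapped, at 989 and 1164 CPM under cuprizone, against 1041 and 1313 CPM in mock.

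Among 44 core spliceosome proteins the folds were split, with 27 positive (61.4%) and a median log2 fold of 0.05 (0.022 to 0.15 without 1 library). Of these, 13 were higher in both cuprizone libraries (29.5%, beside 21.9% of all genes) and 5 lower (11.4%, beside 22.5%). Prpf8, at the catalytic core, had 64.2 and 72.2 CPM under cuprizone, against 31.4 and 31.3 CPM in mock (log2 fold 1.12 ± 0.21, edgeR adjusted p = 0.148, DESeq2 adjusted p = 0.00199). Snrpd2, a Sm ring protein, had 70.6 and 52.1 CPM under cuprizone, against 84.5 and 84.7 CPM in mock (log2 fold -0.46 ± 0.22). Neither Prpf8 nor Snrpd2 passed the adjusted threshold in edgeR, and 0 of the 44 were lower at an edgeR unadjusted p under 0.05. Of 16 genes of the exon junction complex and of nonsense-mediated decay, which acts on the poison exons of SR transcripts, 13 had a positive fold, 6 were higher in both cuprizone libraries and 1 lower, and the median log2 fold was 0.36. Smg1, the kinase that activates the decay factor Upf1, had 22.0 and 24.1 CPM under cuprizone, against 10.4 and 14.8 CPM in mock (log2 fold 0.87 ± 0.34). Upf1 had 26.2 and 28.2 CPM under cuprizone, against 14.0 and 19.2 CPM in mock (log2 fold 0.71 ± 0.31). The log2 folds of the 16 genes ran from -0.24 to 0.87, and their smallest edgeR adjusted p was 0.363. Among 15 mRNA export genes tested of 16 listed, 10 had a positive fold, 4 were higher in both cuprizone libraries (26.7%, near the share of all genes) and 0 lower, and the median log2 fold was 0.13, or 0.0087 without cuprizone replicate 2. Among 24 cytoplasmic stability and transport proteins tested of 26 listed, 21 had a positive fold, 13 were higher in both cuprizone libraries and 2 lower, with a median log2 fold of 0.24. None of these lists held a gene called by edgeR or by limma-voom. At an edgeR unadjusted p under 0.05, 5.73% of all genes were higher and 7.04% lower. Higher at that level were 2 of 12 kinases and regulators, 4 of 22 co-activators and 4 of 37 other splicing regulators. So were 5 of 44 spliceosome proteins and 1 of 16 exon junction and decay genes. Of the export genes 0 of 15 were higher, and of the stability and transport proteins 2 of 24. Among the other splicing regulators 1 gene was lower. DESeq2 called, in either direction, 1 of the kinases and regulators, 2 of the other splicing regulators and 2 of the spliceosome proteins. Over all 15816 genes DESeq2 called 264 higher and 451 lower.

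**Figure D5:**
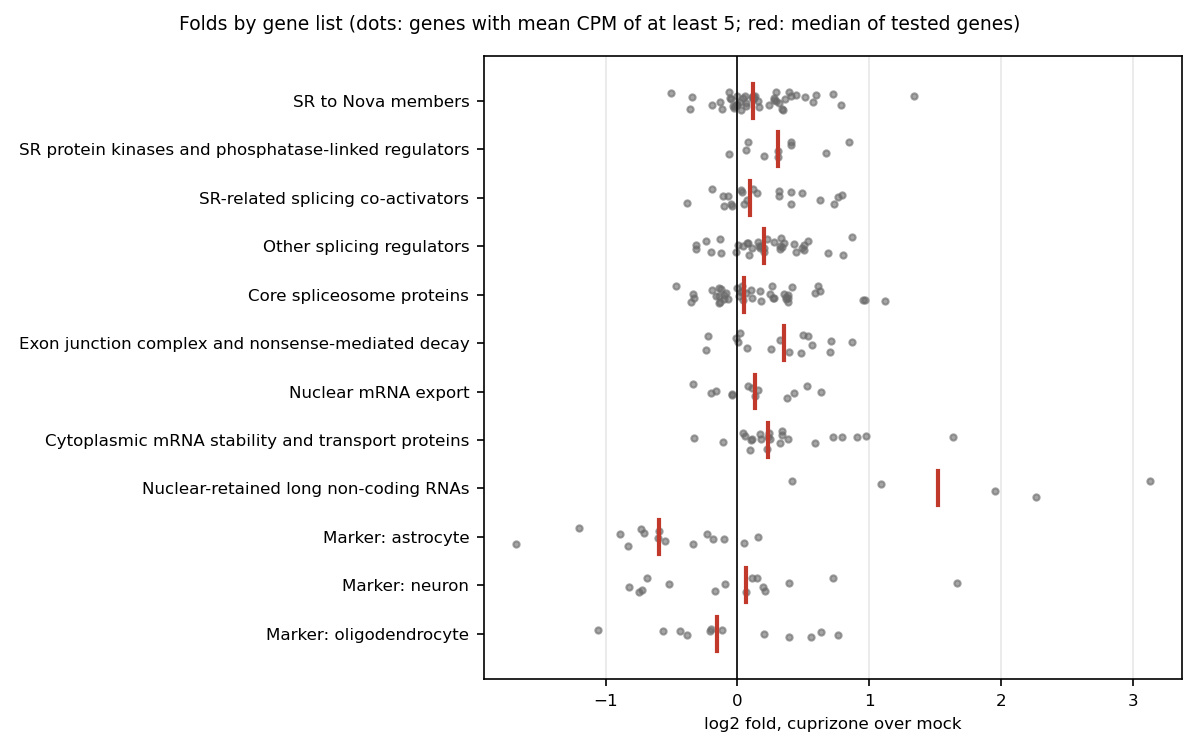
Log2 fold of cuprizone over mock by gene list, with 1 dot per gene at a mean of at least 5 CPM and a red line at the median of the tested genes. The medians are 0.12 for the members, 0.36 for the exon junction and decay genes, 1.52 for the nuclear-retained long non-coding RNAs and -0.59 for the astrocyte markers.

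Long non-coding RNAs retained in the nucleus are not translated, and several are bound by SR and hnRNP proteins. Of 9 listed, 8 were tested and all 8 had a positive fold, beside 50.1% of all genes tested. Of the 8, 6 were higher in both cuprizone libraries (75%, beside 21.9% of all genes) and 0 lower (beside 22.5%). In edgeR 3 were called higher, beside 0.0316% of all genes. The list was chosen with these results known. Malat1, a speckle RNA that SR proteins bind, had 485 and 543 CPM under cuprizone, against 145 and 119.5 CPM in mock (log2 fold 1.96 ± 0.17, edgeR adjusted p = 0.0290). Meg3 had 193 and 186 CPM under cuprizone, against 40.2 and 38.3 CPM in mock (log2 fold 2.27 ± 0.17, edgeR adjusted p = 0.0176). Snhg11 had 175 and 159 CPM under cuprizone, against 19.7 and 18.2 CPM in mock (log2 fold 3.13 ± 0.19, edgeR adjusted p = 0.00710). Malat1, Meg3 and Snhg11 were thus more abundant in both cuprizone libraries. The list as a whole took 0.0952% and 0.0944% of counts under cuprizone, against 0.0231% and 0.0212% in mock. The part of nuclear RNA in the differences of the members was not tested.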

How the data were processed

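RNA-seq of ribosome pull-downs (polyadenylated RNA, low-input kit, per the labels' protocols) gave 4 libraries, grouped by the labels as 2 cuprizone and 2 mock. The authors deposited raw counts per Ensembl gene; per the submitters' processing notes, FastQC 0.11.9, STAR 2.5.4b and featureCounts 1.6.0 were used with GRCm38 (mm10). Which annotation release, strand setting and multi-mapping rule they used is not given in the sources used here, and reads of overlapping or near-identical genes may have been dropped or shared.

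Symbols came from GENCODE M21 and matched 55144 of 55471 ids; the other 327 held at most 0.0230% of a library's counts. Genes kept by filterByExpr (15816, all 46 members among them) entered edgeR 4.0.16 under R 4.3.3 (TMM scaling, glmQLFit and glmQLFTest, 2-sided), with p-values adjusted by Benjamini-Hochberg over all of them at 0.05. DESeq2 1.42.0, limma 3.58.1 (voom), other scalings and filters, a replicate block and leaving out each library were alternatives. Levels are CPM scaled by TMM; errors are SD over 2 libraries, or the SE of a log2 fold. The value of 3 counts, up to which a gene at 0 cannot be told from absent, was 0.126 to 0.141 CPM, and covers counting error only. The edgeR fit, at its main settings, was run on simulated data first. The members and the gene lists were chosen with earlier results of these data known. Every member is accounted for; those with values in every library are the most abundant and the most changed without overlap in each family, and others are given as ranges or for their spread. Lists get counts and medians, with no test.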

Additional observations from a re-analysis of the deposited data

How the results depend on the processing

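In edgeR no member was called under any alternative; DESeq2 called 1 (Srsf2, adjusted p = 0.0140). Over all genes the calls were 5 higher and 8 lower. They were 14 and 54 when genes needed a mean of 1 CPM, 45 and 146 with no filter, 264 and 451 with DESeq2, 9 and 38 with voom, and 9 and 42 with bias-adjusted dispersions. With the replicate block they were 5 and 5; the numbers share no stated origin, the same-numbered libraries' deviations correlated at -0.01, and the block changed no call of a member. Leaving out 1 library gave 2 to 52 higher and 3 to 71 lower. With library totals in place of TMM the median log2 fold was 0.19 for all members, 0.18 for hnRNP genes, 0.17 for SR-related co-activators and 0.27 for other splicing regulators. Without 1 library these medians ran from 0.14 to 0.19, 0.089 to 0.22, 0.0040 to 0.26 and 0.14 to 0.22, and that of the exon junction and decay genes from 0.15 to 0.51, of the export genes from 0.0087 to 0.24 and of the core spliceosome from 0.022 to 0.15. Of 46 members, 23 kept their sign under every alternative and 23 did not, and the cause was not tested. Over all alternatives the log2 fold ran from -0.33 to 0.31 for Srsf12, -0.13 to 0.10 for Srsf6, -0.023 to 0.33 for Srsf7, -0.057 to 0.13 for Hnrnpa1, -0.031 to 0.25 for Hnrnpa3, -0.07 to 0.76 for Hnrnpab, -0.29 to 0.0017 for Hnrnpc, -0.096 to 0.044 for Hnrnpdl, -0.36 to 0.38 for Hnrnph2, -0.10 to 0.20 for Hnrnph3, -0.11 to 0.24 for Hnrnpl, -0.095 to 0.29 for Hnrnpm, -0.085 to 0.049 for Hnrnpr and -0.57 to 0.099 for Hnrnpul2. Celf2 was -0.00063 with upper-quartile scaling, -0.0020 with the mean of 1 CPM, -0.0029 with voom, -0.00014 with bias-adjusted dispersions, -0.0017 with the block and -0.16 to 0.17 without 1 library. With library totals, Celf4 was 0.023, Celf5 0.01, Rbfox1 0.037 and Rbfox2 0.068. Rbfox2 was 0.0035 with RLE scaling and with DESeq2, and 0.0015 with no filter. Elavl2 was -0.026 with voom and -0.015 with the block. Without 1 library the ranges were -0.30 to 0.16 for Celf5, -0.22 to 0.61 for Celf6, -0.51 to 0.47 for Elavl2, -0.10 to 0.21 for Nova2, -0.11 to 0.071 for Rbfox1, -0.032 to 0.054 for Rbfox2 and -0.034 to 0.32 for Srsf5. The Celf share difference of 0.0052 percentage points was -0.0028 on TMM-scaled library sizes, and -0.0011 to 0.012 without 1 library. With 2 libraries a group, a lone library was assumed to vary like the other group.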
